A study of Mus musculus with 8 samples.

Results

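The blood-testis barrier is built between neighbouring Sertoli cells, the somatic nurse cells of the seminiferous tubule, and divides the tubule into a basal and an adluminal compartment. It combines tight junctions, gap junctions and an actin-rich adherens junction called the basal ectoplasmic specialization, and germ cells entering meiosis have to pass it. A set of 9 genes for its junction proteins was chosen by name: the claudins Cldn11 and Cldn3, the MARVEL-domain proteins Ocln and Marveld2, the scaffold Tjp1, the connexin Gja1, and the adhesion molecules Cdh2, Nectin2 and Jam3. Of these, 8 were among the 17127 genes with expression values, and Marveld2 is not analysed here.

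RNA-seq was performed on whole testes of 4-month-old male mice, 1 library per mouse. The mutant group (libraries 1, 2 and 4) was homozygous for a small out-of-frame deletion in exon 19 of Iqch, made with CRISPR-Cas9 in B6CBAF1 (C57BL/6xCBA) zygotes, and the control group (libraries 1 to 4) was wild type. The labels name no treatment. The deletion is in the germline, so every cell of the testis carried it, and the labels name no edited line, while the study draws its mutant RNA-seq coverage as line Iqch mu7. Whole testis mixes all cell types, so that fewer cells of a type and less RNA per cell cannot be told apart.

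Expression is given in CPM (counts per 1000000), a gene's reads scaled to the library total, and the libraries held 32064384 to 37551057 reads on these genes if the smallest step of the values is taken as 1 read. The change between groups is the log2 fold change, mutant minus wild type, on the log2(CPM + 0.1) scale, and a gene was called changed when limma gave a Benjamini-Hochberg FDR below 0.01 over all 17126 genes tested. Iqch itself was called lower, at 207.8 ± 11.3 CPM in wild type (SD, n = 4) and 67.3 ± 2.25 in mutants (SD, n = 3), with a log2 fold change of -1.62 and an FDR of 1.9e-10. The split of the libraries by genotype gave the largest absolute difference of the 35 possible splits into 3 and 4 (two-sided exact permutation test, p = 0.029, the smallest these group sizes allow). Over all genes the call was common: 50.4% of tested genes passed, 36.3% higher and 14.2% lower in mutants, and the median log2 fold change was 0.12.

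Cell type markers moved with genotype too. All 16 tested Sertoli cell markers were called higher in mutants, with a median log2 fold change of 0.84, and their summed level rose from 1714–1831 CPM to 3524–3831 CPM. All 7 spermatid markers were called lower, and their sum fell from 18825–19967 CPM to 11789–13702 CPM. The 2 Sertoli cell markers at the highest mean level were Clu, at 850.9 ± 39.3 CPM in wild type and 1816 ± 56.9 in mutants, and Ctsl, at 317.7 ± 9.07 and 672.7 ± 35.7. Leydig cell markers were called higher in 6 of 7 cases (sum 1108–1322 CPM in wild type, 4627–4772 in mutants) and macrophage markers in 5 of 5 (54.6–61.3 and 132.1–152.5 CPM), whereas spermatocyte markers were called in 1 of 5 (806.4–835.4 and 751.6–824.1 CPM). Calls of spermatogonium markers were higher in 3 of 5 (87.6–99.6 and 135.2–163.5 CPM), of endothelial markers in 1 of 4 (26.5–30.1 and 34.3–36.9 CPM), of peritubular myoid markers in 1 of 4 (66.2–90.1 and 76.5–101.7 CPM) and of rete testis and epididymis markers in 1 of 3 (42.4–45.6 and 44.8–49.7 CPM). With size factors, which align libraries on their median gene, 27% of all genes were called higher and 25.1% lower. The calls were then 14 higher of the Sertoli cell markers, 7 lower of the spermatid markers and 1 higher of the spermatogonium markers. Of the spermatocyte markers 3 were called lower, and of the endothelial markers 1 higher and 1 lower. No tested marker was at 0 in any library. The called rete testis and epididymis marker, Rnase10, was under the test minimum of 2.2 CPM in every wild-type library. It was tested only through the mutants. The part of these cell types in the changes of the junction genes was not tested, and for this reason each junction gene is also given relative to the Sertoli cell markers, as its log2 fold change after each library was divided by a factor from the mean log2 level of the 16 markers.

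Of the 8 junction genes tested, 5 (62.5%) were called, 4 higher and 1 lower, where 50.4% of all genes were called. Cldn11, Gja1, Nectin2 and Jam3 rose, Cldn3 fell, and Ocln, Tjp1 and Cdh2 did not pass the test. Their median log2 fold change was 0.36. The mutant values lay entirely above the wild-type values for 6 genes and entirely below them for 1, so that the groups were apart for 7 of 8, where they were apart in 62.3% of all tested genes (42.8% above and 19.5% below). The summed level of the 8 genes was 432.7–460.7 CPM in wild type and 578.6–603.3 CPM in mutants.

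**Figure D1:**
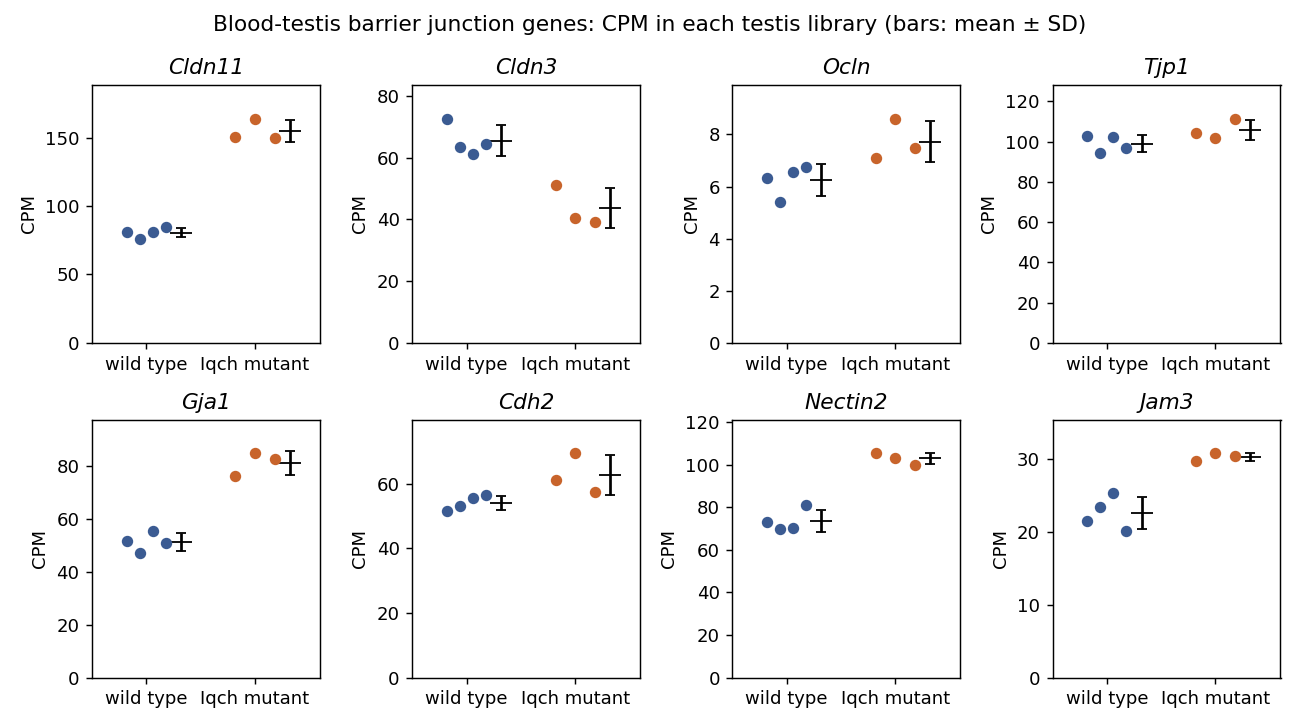
Level of 8 barrier junction genes in each library, 1 panel per gene, in CPM on axes that start at 0. Points are single testes, 4 wild type in blue and 3 Iqch mutant in orange, and the bars give mean ± SD; Cldn3 is the gene whose mutant points lie below all wild-type points, and Tjp1 the gene whose groups overlap.

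The claudins are the membrane proteins that form the strands of a tight junction, and both tested claudins of the set changed, in opposite directions. Because they moved apart, the 250 bases before the canonical start of each are shown, read from the GRCm39 genome with starts from GENCODE M39. Cldn11 lies on chr3:31203900-31218495 on the plus strand and Cldn3 on chr5:135015068-135016326 on the plus strand. The capitals mark the only match to any of the 9 motifs searched below, a GC box (GGGCGG) that reads CCGCCC on the strand shown.
Cldn11 (chr3:31203650-31203899, plus strand): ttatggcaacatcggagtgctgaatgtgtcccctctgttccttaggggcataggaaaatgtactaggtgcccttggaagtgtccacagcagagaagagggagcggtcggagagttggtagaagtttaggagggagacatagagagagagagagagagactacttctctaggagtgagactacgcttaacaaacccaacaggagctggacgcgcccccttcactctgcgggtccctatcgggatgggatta
Cldn3 (chr5:135014818-135015067, plus strand): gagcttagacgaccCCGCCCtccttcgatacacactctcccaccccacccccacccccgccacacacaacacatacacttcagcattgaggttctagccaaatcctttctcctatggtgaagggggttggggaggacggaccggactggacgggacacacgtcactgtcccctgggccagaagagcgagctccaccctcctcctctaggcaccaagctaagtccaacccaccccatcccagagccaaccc
The GC content was 52.4% before Cldn11 and 60.8% before Cldn3.

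Cldn11 (ENSMUSG00000037625) encodes claudin 11, the main claudin of the Sertoli cell tight junction. Its level was 81.3, 76.0, 80.8 and 84.4 CPM in wild-type libraries 1 to 4 and 150.6, 163.9 and 149.9 CPM in mutants 1, 2 and 4. Each mutant was far above each wild type, with group means of 80.6 ± 3.46 (SD, n = 4) and 154.8 ± 7.90 CPM (SD, n = 3). The log2 fold change was 0.94 (SE 0.05, 95% interval 0.83 to 1.05, limma FDR 1.4e-08), at percentile 90.0 of all tested genes. With the Sertoli cell marker factor the difference was no longer called, with a log2 fold change of 0.09 (95% interval -0.05 to 0.23, FDR 0.2). As a share of the summed marker CPM, Cldn11 was at 4.44%, 4.43%, 4.59% and 4.61% in wild type and at 4.27%, 4.28% and 4.25% in mutants. These shares did not overlap, and those of the mutants were slightly lower. The sum gives more weight to markers at a high level, such as Clu and Ctsl, while the factor weights all 16 markers equally. The mean level of Cldn11 was 1.92 times the wild-type mean in mutants, and that of the summed markers 2.03 times.

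Cldn3 (ENSMUSG00000070473) encodes claudin 3, which is known from barriers that are being newly assembled around germ cells on their way to the adluminal side. It was measured at 72.7, 63.6, 61.1 and 64.6 CPM in wild type and at 51.1, 40.6 and 39.3 CPM in mutants. The groups did not overlap, and mutant 1 was the highest of the mutants. The log2 fold change was -0.59 (SE 0.09, 95% interval -0.78 to -0.40, FDR 7.1e-05), at percentile 3.6 of all tested genes. Relative to the Sertoli cell markers it was -1.44 (SE 0.09, FDR 7.8e-11). The ratio of Cldn3 to Cldn11 within a library, which does not depend on how libraries are scaled, was 0.894, 0.837, 0.757 and 0.765 in wild type and 0.339, 0.248 and 0.263 in mutants.

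The Cldn3 value has a limit of its own. Its single exon lies inside the antisense lncRNA gene Wbscr25 (ENSMUSG00000054909, chr5:135014903-135030204, minus strand), whose exons cover 906 of its 1259 exon bases (72.0%). The strand setting of the counting is not given in the sources used here, so reads of the gene and its antisense partner cannot be told apart over that stretch. Wbscr25 was called lower as well, at 304.4, 332.8, 304.8 and 311.3 CPM in wild type and 232.2, 213.8 and 207.4 CPM in mutants (log2 fold change -0.53, SE 0.05, FDR 1.3e-06). The ratio of Cldn3 to Wbscr25 overlapped between the groups, at 0.210 ± 0.021 in wild type (SD, n = 4) and 0.200 ± 0.017 in mutants (SD, n = 3). So did the ratio of Cldn3 to the summed spermatid markers, at 0.336% ± 0.022 in wild type and 0.342% ± 0.027 in mutants. The part of Wbscr25 reads or of spermatid RNA in the Cldn3 value was not tested.

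**Figure D2:**
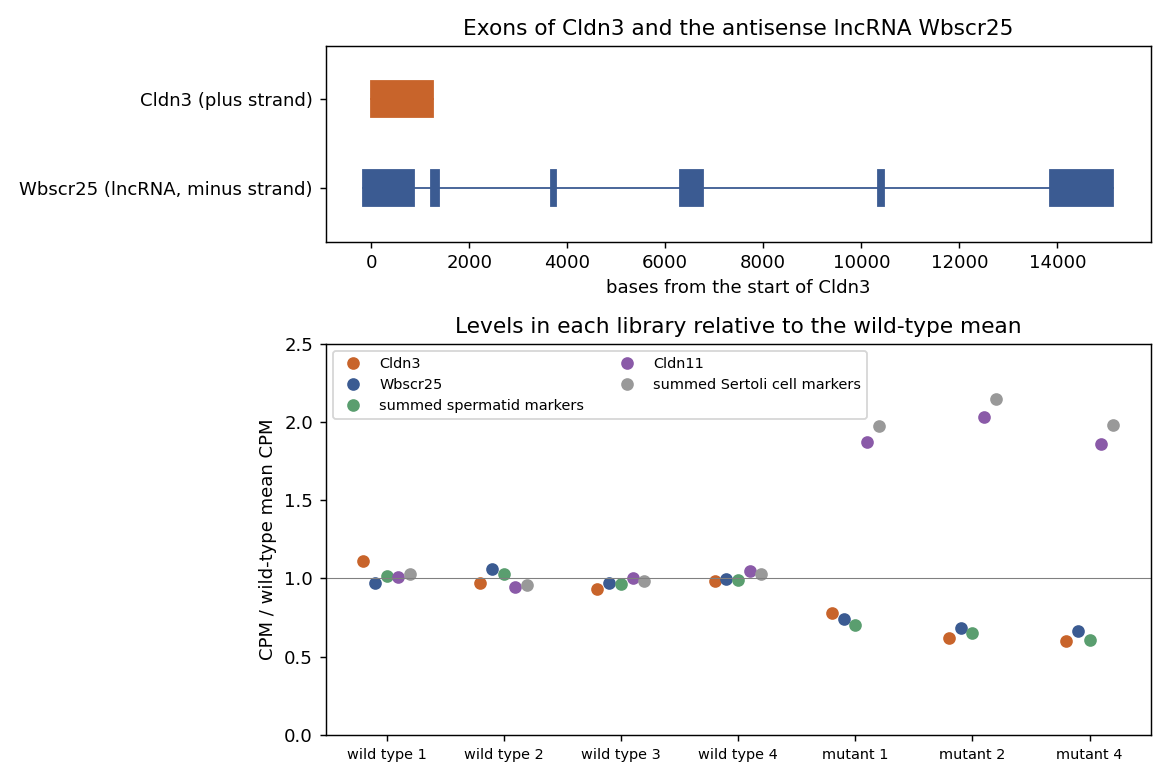
Top, exons of Cldn3 and of the antisense lncRNA Wbscr25 as boxes, in bases from the start of Cldn3, with introns as lines; the Wbscr25 exons overlap 906 bases of Cldn3. Bottom, level in each library divided by the wild-type mean of the same quantity (no units, axis from 0); in the 3 mutants Cldn3, Wbscr25 and the summed spermatid markers lie below 1, and Cldn11 and the summed Sertoli cell markers lie near 2.

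Occludin, encoded by Ocln (ENSMUSG00000021638, chr13:100630334-100689535, minus strand), is a membrane protein that lines tight junction strands. It was at 6.31, 5.39, 6.54 and 6.76 CPM in wild type and at 7.10, 8.61 and 7.46 CPM in mutants. The mutants were all above the wild types, by a margin between the nearest libraries smaller than the spread within a group. The log2 fold change of 0.30 (SE 0.11, 95% interval 0.06 to 0.54) did not pass, with an FDR of 0.033. Of its exon bases, 167 (1.8%) are shared with an antisense lncRNA.

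Tjp1 (ENSMUSG00000030516, chr7:64945898-65177529, minus strand) encodes ZO-1, the scaffold that ties claudins and occludin to actin. The wild-type libraries gave 102.8, 94.2, 102.2 and 96.6 CPM and the mutants 104.3, 102.1 and 111.5 CPM. The groups overlapped, and the log2 fold change of 0.10 had a 95% interval of -0.01 to 0.21 (FDR 0.1). After scaling by median-of-ratios size factors, which lowered the median of all genes from 0.12 to -0.01, its sign turned (-0.04, 95% interval -0.15 to 0.07).

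The gap junction gene of the set is Gja1 (ENSMUSG00000050953, chr10:56253241-56278609, plus strand), which encodes connexin 43, the main connexin between Sertoli cells and between them and germ cells. It was measured at 51.5, 47.1, 55.2 and 50.7 CPM in wild type and at 75.9, 84.7 and 82.5 CPM in mutants. Every mutant was above every wild type, and the log2 fold change was 0.66 (SE 0.06, 95% interval 0.53 to 0.80, FDR 1.2e-06). The ratio of Gja1 to Cldn11 did not overlap between the groups, at 0.635 ± 0.035 in wild type (SD, n = 4) and 0.524 ± 0.024 in mutants (SD, n = 3). Against the Sertoli cell markers its sign turned and the call was lost (-0.19, FDR 0.02).

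Cdh2 (ENSMUSG00000024304, on chromosome 18) encodes N-cadherin, the cadherin of Sertoli cell adherens junctions. It was at 51.7, 53.1, 55.5 and 56.4 CPM in wild type and at 61.1, 69.4 and 57.6 CPM in mutants. The lowest mutant, library 4, was close to the highest wild type, although the groups did not overlap. The log2 fold change of 0.21 (SE 0.06, 95% interval 0.07 to 0.35) did not pass at an FDR of 0.014. Without mutant 4 it passed, at 0.27 with an FDR of 0.0056, whereas without mutant 2 it was 0.13 (FDR 0.082) and with size factors 0.07 (FDR 0.33). Relative to the Sertoli cell markers Cdh2 was called lower (-0.64, FDR 5.5e-08).

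Nectin2 (ENSMUSG00000062300, chr7:19450569-19484408, minus strand) is carried by Sertoli cells and binds nectin 3 on spermatids at the apical ectoplasmic specialization. Its level was 72.8, 69.8, 70.2 and 81.1 CPM in wild type and 105.3, 103.3 and 100.01 CPM in mutants. All mutants exceeded all wild types, and the log2 fold change was 0.49 (SE 0.06, 95% interval 0.36 to 0.61, FDR 9.5e-06). The spermatid partner Nectin3 went the other way, from 465.8 ± 12.5 CPM in wild type to 370.5 ± 10.1 CPM in mutants (log2 fold change -0.33, FDR 9.6e-06). The ratio of Nectin2 to Nectin3 rose from 0.158 ± 0.0099 (SD, n = 4) to 0.278 ± 0.014 (SD, n = 3), with no overlap. With the Sertoli marker factor Nectin2 was called lower (-0.36, FDR 0.00013).

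Jam3 (ENSMUSG00000031990, chr9:27005652-27066915, minus strand) encodes a junctional adhesion molecule present on spermatids and at Sertoli cell contacts. It was at 21.5, 23.4, 25.2 and 20.1 CPM in wild type and at 29.7, 30.7 and 30.3 CPM in mutants. The mutants were tightly grouped above the wild types, and the log2 fold change was 0.43 (SE 0.08, 95% interval 0.26 to 0.59, FDR 0.00036). Its partner Jam2 rose from 31.7 ± 2.42 to 57.5 ± 4.07 CPM (log2 fold change 0.86, FDR 4.6e-07). Jam2 over Jam3 was 1.41 ± 0.070 in wild type (SD, n = 4) and 1.90 ± 0.103 in mutants (SD, n = 3), without overlap. Relative to the Sertoli cell markers Jam3 was called lower (-0.42, FDR 0.00022), and for Jam2 the difference was 0.01 (FDR 0.91). Jam3 shares 1391 exon bases (20.3%) with the antisense lncRNA Gm48796, called higher at 2.09 ± 0.26 and 3.20 ± 0.61 CPM (FDR 0.0085). That call was lost with size factors (FDR 0.028) and with the Sertoli marker factor (FDR 0.21). Gm48796 reached the test minimum of 2.2 CPM in 2 libraries only among the mutants. Jam3 also shares 767 exon bases (11.2%) with Ncapd3 on the opposite strand, not called at 34.2 ± 1.97 and 36.4 ± 1.51 CPM (FDR 0.21).

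**Figure D3:**
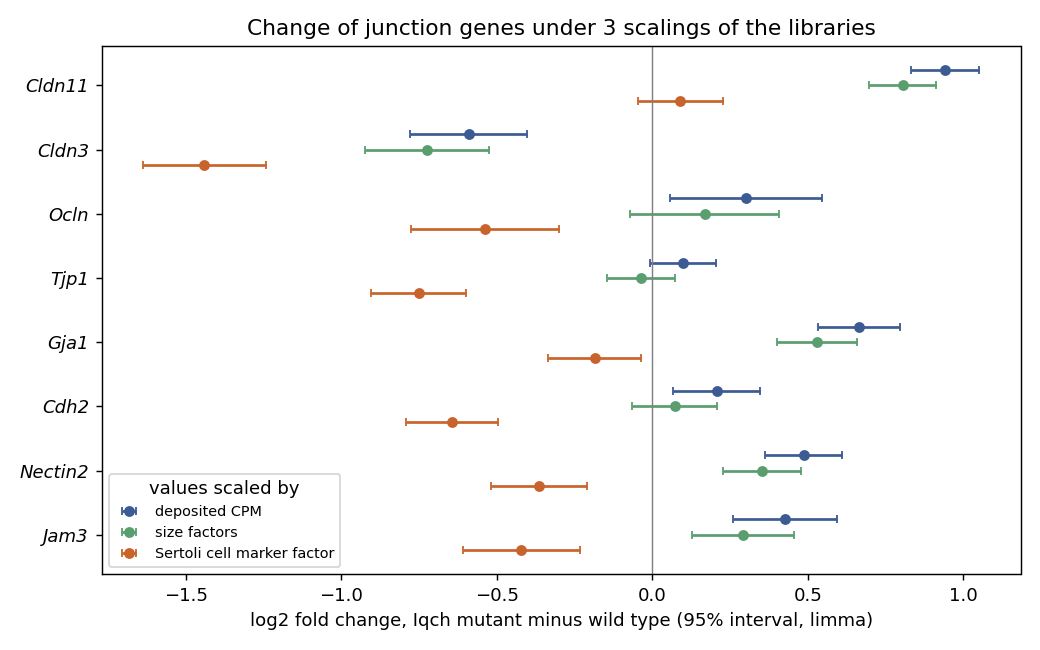
Log2 fold change (mutant minus wild type) of each junction gene with its 95% interval from limma, for the deposited CPM, for CPM divided by size factors and for CPM divided by the Sertoli cell marker factor. The Cldn3 intervals lie below 0 under all 3 scalings, while the Cldn11 estimate moves from 0.94 to 0.81 and 0.09.

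How the libraries were scaled mattered to the set as a whole. With size factors 27% of all genes were called higher and 25.1% lower, and the junction genes kept 4 higher and 1 lower, with Cldn11 at 0.81, Cldn3 at -0.73, Gja1 at 0.53, Nectin2 at 0.35 and Jam3 at 0.29. With the Sertoli marker factor 5.76% of all genes were called higher and 76.2% lower, and of the junction genes 0 were higher and 6 lower (Cldn3, Ocln, Tjp1, Cdh2, Nectin2 and Jam3). Ocln was then at -0.54 (FDR 2e-04) and Tjp1 at -0.75 (FDR 1.1e-08).

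The genes also differed in level, compared here as CPM per kilobase of annotated exon. In wild type Cldn3 was the highest at 52.0 ± 3.98, followed by Cldn11 at 32.7 ± 1.40, Nectin2 at 18.2 ± 1.31, Tjp1 at 12.5 ± 0.53, Cdh2 at 6.25 ± 0.25, Gja1 at 4.16 ± 0.27, Jam3 at 3.30 ± 0.33 and Ocln at 0.666 ± 0.064 (SD, n = 4). No neighbours in this order overlapped between libraries. The length joins all annotated exons of a gene (12302 bases for Gja1, 1259 for Cldn3), so the order also depends on the annotation. In mutants the claudins changed places, with Cldn11 at 62.9 ± 3.21 and Cldn3 at 34.7 ± 5.12 CPM per kilobase (SD, n = 3), and Cdh2 (7.23 ± 0.70) and Gja1 (6.59 ± 0.37) were no longer separate. The place of Cldn3 in wild type rests on an exon that overlaps Wbscr25.

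The spread between animals was small for most of the set. The coefficient of variation in wild type ran from 3.99% for Cdh2 to 9.94% for Jam3, and in mutants from 1.74% for Jam3 to 14.8% for Cldn3. The mutant spread of Cldn3 came from library 1, which lay above the other mutants. The sum of spermatid markers was also highest in that library (13702 CPM against 12659 and 11789). So was Wbscr25 (232.2 CPM against 213.8 and 207.4), and the part of either in the spread of Cldn3 was not tested.

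Profiles most like those of the junction genes were found by the root mean square distance between log2(CPM + 0.1) values, each centred on its own mean over the 7 libraries. For Cldn11 the nearest genes were St8sia2 (distance 0.018), Slc41a1 (0.025), AU015836 (0.026), Cyb5r1 (0.028) and Ywhag (0.032). For Gja1 they were Zfp280c (0.025), Trpm7 (0.033), Abcc5 (0.034), Macf1 (0.035) and Pwwp3b (0.035). For Cldn3, looked up after its values were seen, they were Lelp1 (0.049), Prm2 (0.063), Odf1 (0.072), Tmsb15a (0.078) and Oxct2b (0.081). Prm2 encodes a protamine, which packs sperm DNA, and Odf1 a protein of the outer dense fibres of the sperm tail. Because the distance spans both groups, it favours genes with a similar log2 fold change. Those nearest to Cldn3 were at -0.55 to -0.64, where Cldn3 was at -0.59. Expression in the same cells was not tested.

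In the promoters a search of both strands for 9 motifs, in 250 bases before the canonical start, gave few matches. The canonical start is not always the outer end of the gene: the Tjp1 window, chr7:65021036-65021285, lies inside the gene span given above. Other starts of these genes were not searched. The GC box GGGCGG was present before 5 of the 8 genes (Cldn3, Ocln, Tjp1, Cdh2 and Nectin2) and in 36.3% of 21770 protein-coding promoters. Gja1 held the GATA motif AGATAA (9.6% of promoters) and the AP-1 motif TGANTCA (6.17%), the latter 43 bases before its start, and Cdh2 held CCAAT (36.5%). The SOX motifs AACAAT (9.67%) and ACAAAG (15.9%), the TATA box TATAAA (11.9%), the CRE motif TGACGTCA (1.69%) and a full palindromic androgen response element (0%) were found in none of the 8 windows. The motif matches describe the letters of these windows and were not tested against the changes.

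Around the set, the other membrane proteins of tight junctions were mostly higher in mutants. Of 19 listed, 8 were tested, 7 were called higher and 0 lower, where 36.3% of all genes were called higher. The median log2 fold change was 0.85 against 0.12 over all genes. With the Sertoli marker factor 2 were called higher and 2 lower, where 5.76% of all genes were called higher and 76.2% lower. Ildr2, a tricellular junction protein of the angulin family, had the largest change, from 1.46 ± 0.38 CPM in wild type to 12.4 ± 2.42 in mutants (log2 fold change 3.02, FDR 6.5e-08). Every wild-type library was under the test minimum of 2.2 CPM for Ildr2, so it was tested only through the mutants, where it is high. Lsr, another angulin, rose from 12.03 ± 1.10 to 28.2 ± 3.08 CPM (1.22, FDR 2.6e-07). Both stayed higher relative to the Sertoli cell markers (FDR 7.3e-10 for Ildr2, and a log2 fold change of 0.37 with an FDR of 0.00089 for Lsr). Cxadr, a further partner at these contacts, is not analysed here.

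Scaffold and polarity proteins were called about as often as all genes, in 10 of 20 tested (50.0%, of 22 listed) against 50.4%. Of these calls 8 were higher and 2 lower, and the median was 0.15. The counts were 8 and 7 with size factors (27% and 25.1% of all genes). They were 1 and 14 with the Sertoli marker factor (5.76% and 76.2% of all genes). Leaving out any 1 library left 1 of the lower calls. Amotl2, an actin-binding scaffold of the angiomotin family, rose from 5.89 ± 0.40 to 13.9 ± 1.97 CPM (1.22, FDR 1.1e-06). Pard6b, a subunit of the PAR polarity complex, rose from 10.8 ± 1.05 to 20.2 ± 1.31 CPM (0.90, FDR 2.6e-06), and Pard3b, a relative of the PAR complex scaffold, fell from 10.3 ± 0.96 to 7.59 ± 0.48 CPM (-0.43, FDR 0.0019). Ybx3, a Y-box protein that binds ZO-1 and is also abundant in germ cells, fell from 1511 ± 11.8 to 1382 ± 52.6 CPM (-0.13, FDR 0.0082).

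Connexins other than Gja1 mostly did not pass. Of 15 listed, 7 were tested and 1 was called (14.3%), with a median log2 fold change of 0.09. Desmosomal genes gave 1 call each way among 6 tested of 9 (33.3% called), with a median of -0.06. Over all genes 50.4% were called. With the Sertoli marker factor 6 of the connexins and 5 of the desmosomal genes were called, all lower, where 76.2% of all genes were called lower. On the deposited CPM the plakophilins, which link desmosomal cadherins to intermediate filaments, provided both desmosomal calls. Pkp2 rose from 2.95 ± 0.48 to 5.01 ± 0.80 CPM (0.74, FDR 0.0013) and Pkp1 fell from 7.81 ± 0.79 to 4.43 ± 0.44 CPM (-0.80, FDR 5.9e-05).

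Among genes of the adherens junction and ectoplasmic specialization, 26 of 27 were tested, 18 were called higher and 1, Nectin3, lower, with a median of 0.39. The higher calls were 69.2% of those tested, where 36.3% of all genes were called higher. The counts were 12 and 1 with size factors, where 27% of all genes were called higher and 25.1% lower. With the Sertoli marker factor they were 2 higher and 17 lower, where 5.76% of all genes were called higher and 76.2% lower. Eps8, an actin-bundling protein of the ectoplasmic specialization, rose from 10.8 ± 1.54 to 33.3 ± 1.56 CPM (log2 fold change 1.62, FDR 3.4e-08). Nectin4 was called higher (1.25, FDR 0.0061), but its wild-type libraries were split, at 16.5, 5.39, 15.0 and 5.43 CPM, against 22.7, 22.95 and 20.9 CPM in mutants. With size factors Nectin4 was no longer called (FDR 0.011). Ctnnb1, which encodes beta-catenin, the partner of N-cadherin inside the cell, rose from 110.3 ± 4.07 to 159.3 ± 0.98 CPM (0.53, FDR 3.7e-07), where Cdh2 itself did not pass. Afdn, which encodes afadin, the anchor of nectins to actin, was at 68.6 ± 4.31 and 78.3 ± 2.598 CPM (0.19, FDR 0.0094), a call that was lost with size factors (0.06, FDR 0.39). Relative to the Sertoli cell markers Ctnnb1 was lower (-0.32, FDR 0.00019).

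Signals known to open or close the barrier, such as TGF-beta, cytokine and androgen receptors, proteases with their inhibitors and the mTOR complexes, were called higher in 12 and lower in 1 of the 15 tested (18 listed), with a median of 0.75. Over all genes 36.3% were called higher and 14.2% lower. The counts were 11 and 2 with size factors (27% and 25.1% of all genes). They were 4 and 5 with the Sertoli marker factor (5.76% and 76.2% of all genes). Timp1, an inhibitor of matrix metalloproteinases, rose from 1.01 ± 0.36 to 13.6 ± 1.03 CPM (log2 fold change 3.68, FDR 3.3e-08). In wild type Timp1 was under the test minimum of 2.2 CPM in every library, so it was tested only through the mutants, where it is high. Il1r1, the interleukin 1 receptor, rose from 8.61 ± 1.22 to 43.3 ± 4.32 CPM (2.32, FDR 4.6e-09). Mmp2, a matrix metalloproteinase, fell from 3.28 ± 0.51 to 1.92 ± 0.56 CPM (-0.77, FDR 0.0044). Mmp2 reached the test minimum of 2.2 CPM in 2 libraries only among the wild types, where it is high. With a minimum of 5 CPM, without wild type 1 or without mutant 2, 0 of these signals were called lower. Timp1 and Il1r1 stayed higher relative to the Sertoli cell markers (2.87 and 1.48). Leydig cell and macrophage markers were higher in the same testes, by the sums given above. The part of these cell types in the values of Timp1 and Il1r1 was not tested.

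**Figure D4:**
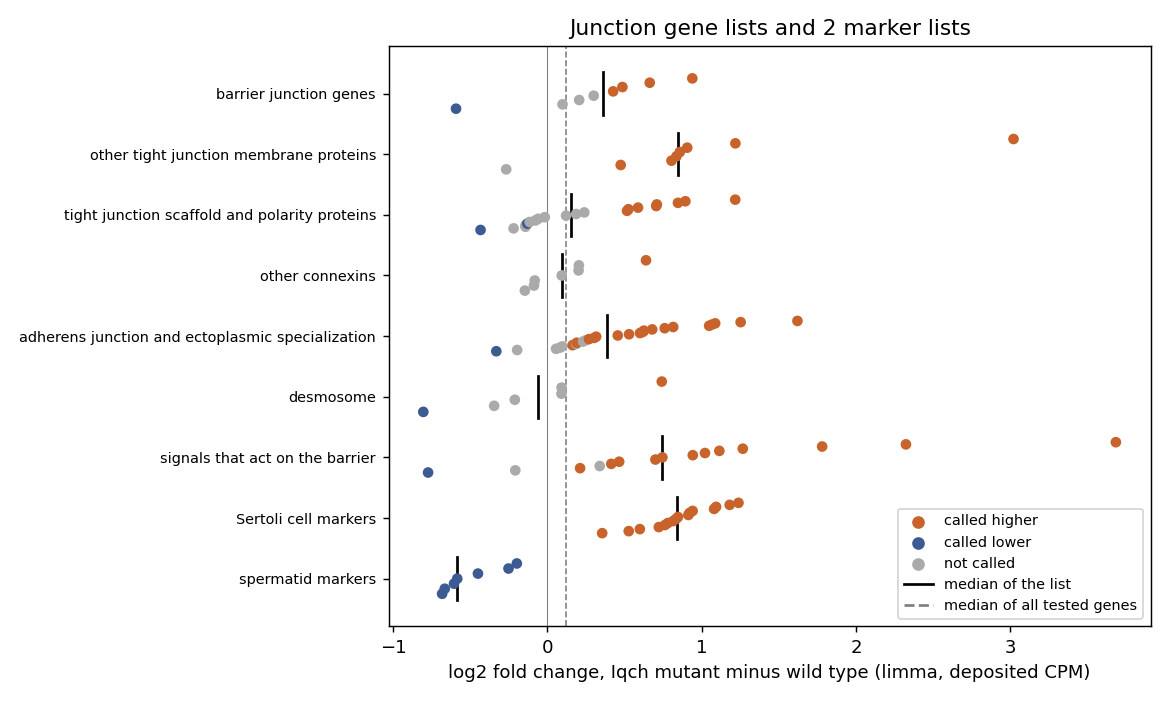
Log2 fold change (mutant minus wild type, limma on the deposited CPM) of each tested gene in the junction lists, the list of signals and 2 marker lists; orange points were called higher, blue lower and grey not called. Black bars are list medians and the dashed line is the median of all tested genes, 0.12; the other tight junction membrane proteins have a median of 0.85 and the desmosomal genes one of -0.06.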

How the data were processed

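Total RNA of whole testes was sequenced as paired ends, 1 library per mouse. Reads were trimmed (Trimmomatic), mapped to GRCm39 (Subread) and assigned to genes (featureCounts) by the authors, who dropped genes under 75 reads unless 2 samples of a group reached that number. The authors made their own calls with edgeR and DESeq2 on counts. The strand setting and annotation release are not given in the sources used here. Deposited values are the authors' CPM, which sum to 1000000 in each library over 17127 genes, so they hold no between-sample factor. Of 8 samples listed, the 7 with a column were used (wild type 1 to 4, mutants 1, 2 and 4). Mutant 3 is not analysed here. The study excluded 1 mutant library as an outlier.

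The test was limma 3.58.1 (R 4.3.3), moderated with an intensity trend, for each gene that reached 2.2 CPM in 2 libraries of either group. It was run on log2(CPM + 0.1), which understates the change of low genes. P-values were adjusted by the Benjamini-Hochberg method over the 17126 genes tested. The fit was tested on simulated data. Gene models came from GENCODE M39 (17045 genes matched, 99.5%), and exon length is the union of a gene's exons. Other steps used Python 3.11.15, NumPy 2.4.6, pandas 2.3.3, SciPy 1.17.1 and matplotlib 3.10.9. The p-values measure the spread between mice of a group, and n is 4 and 3.

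The members and gene lists were chosen with earlier results of these data known. Named genes are all members, partner genes (Nectin3, Jam2, Cxadr, Ctnnb1 and Afdn), the 2 called genes with the largest change in each direction in each list, the 2 Sertoli cell markers at the highest level, Iqch, and the 5 genes nearest in profile to Cldn11 and Gja1; genes sharing exons with members were named after seeing the annotation. Of the genes this rule names, 2 are not reported here. Alternatives were other pseudocounts (1 and 0.01), no minimum or 5 CPM, size factors, the Sertoli cell marker factor, the replicate number as a block, and leaving out each library.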

Additional observations from a re-analysis of the deposited data

How the results depend on the processing

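Under 14 alternatives, 104 of 112 log2 fold changes of the junction genes kept their call or lack of one, and all but 1 of the other 8 came from dividing by the Sertoli cell marker factor. With that factor Ocln was at -0.54, Tjp1 at -0.75, Gja1 at -0.19, Cdh2 at -0.64, Nectin2 at -0.36 and Jam3 at -0.42, all turned in sign, and Cldn11 was at 0.09 and no longer called; by construction the factor sets each gene against markers that rose. The same factor gave 0 junction genes higher and 6 lower, and called 4 other tight junction membrane proteins (2 higher and 2 lower), 6 connexins and 5 desmosomal genes (all lower). Over all genes it called 5.76% higher and 76.2% lower. A minimum of 5 CPM left 0 connexins called, with fewer genes tested. Cdh2 passed without mutant 4 (0.27, FDR 0.0056).

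Leaving out each library in turn gave 0.90 to 0.96 for Cldn11, -0.71 to -0.52 for Cldn3, 0.22 to 0.36 for Ocln, 0.06 to 0.12 for Tjp1, 0.62 to 0.71 for Gja1, 0.13 to 0.27 for Cdh2, 0.46 to 0.54 for Nectin2 and 0.37 to 0.48 for Jam3. Size factors turned the sign of Tjp1, not called in either case (-0.04), and moved the calls over all genes from 6212 higher and 2428 lower to 4627 and 4294.

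No pairing by replicate number was seen: deviations of same-numbered libraries correlated at 0.026, 0.0094 and -0.098 across genes. Differently numbered libraries correlated at -0.061 to 0.073. Whether mice were handled in pairs cannot be told from these values. With the number as a replicate block, 4 junction genes were called higher and 1 lower (Cldn11 0.94, Cldn3 -0.62), and 7722 of all genes were called against 8640. The 2 lower calls among scaffold and polarity proteins were lost under the block (Pard3b FDR 0.011, Ybx3 FDR 0.014). The planned count models (edgeR with TMM or without factors, and DESeq2) were not run. The steps of the CPM values would give whole reads, but too few low values were left in the table for the check of recovered reads that such models required here.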
